A study of Mus musculus with 12 samples.

Results

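The sestrins and other stress-induced brakes on mTORC1 were followed in mouse thyroid through 6 genes chosen by name. They are *Sesn1*, *Sesn2*, *Sesn3*, *Ddit4*, *Eif4ebp1* and *Nupr1*, 6 of the 55536 genes in the deposited tables, and all 6 were among the 19661 genes that passed the filter on low counts. Thyroid RNA, depleted of ribosomal RNA, was sequenced from 12 mice with 1 library per mouse. The affected group was 5 C57BL/6NTac (B6NTac) mice with thyroid dysplasia, a disorder that the study traced to a LINE-1 retrotransposon in an intron of the thyroglobulin gene *Tg*. The unaffected group was 6 C57BL/6NCrl (B6NCrl) mice from another breeder and 1 unaffected knockout animal from Taconic (unaffected 14). The labels give no *Tg* genotype, knocked-out gene, sex, age, treatment or batch, and apart from unaffected 14 colony and phenotype cannot be told apart. Mice are named by group and by the number in their label, which has no order. P-values set a difference between groups against the spread between these mice.

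mTORC1 is a kinase complex that promotes protein synthesis and growth when amino acids and growth factors are available, and in thyroid follicular cells it lies on a route by which thyrotropin drives growth. The sestrins restrain it through GATOR2, a complex of the amino acid sensing machinery, and sestrin 2 binds leucine. *Ddit4* encodes REDD1, which acts through the TSC1-TSC2 complex on the small GTPase Rheb. *Eif4ebp1* encodes 4E-BP1, which holds the cap-binding protein eIF4E until mTORC1 phosphorylates it. *Nupr1* encodes a small stress-induced nuclear protein and is no direct part of this route. As background, *Sesn2*, *Ddit4*, *Eif4ebp1* and *Nupr1* are known targets of ATF4, the transcription factor of the integrated stress response, p53 is known to induce *Sesn1* and *Sesn2*, and FOXO factors are known to induce *Sesn1* and *Sesn3*. The tables measure transcripts, so neither the phosphorylation of 4E-BP1 nor the activity of mTORC1 was measured.

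None of the 6 genes passed the threshold of an adjusted p of 0.05 between affected and unaffected mice (0 of 6, against 13.7% of all genes tested, edgeR's quasi-likelihood F test, adjusted after Benjamini and Hochberg). At an unadjusted p of 0.05, 3 of the 6 passed (*Sesn1*, *Sesn2* and *Eif4ebp1*, against 29.0% of all genes tested), and DESeq2 called the same 3 genes, against 18.3% of all genes with that tool. In no member did every affected mouse lie above or below every unaffected mouse (0 of 6, against 7.14% of all genes tested). *Nupr1* had the largest log2 fold change of the 6. Leaving out 1 control mouse changed the calls of *Nupr1* and *Sesn1* (unaffected 23) and of *Eif4ebp1* (unaffected 22). Without unaffected 23, *Nupr1* and *Sesn1* passed the threshold (2 of 6, against 13.5% of all genes tested).

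Total counts per library were between 20170500 and 23319948 in affected mice, and between 11434901, in unaffected 14, and 22401136 in unaffected mice. Thyroid markers were present in every library, where 10 genes of thyroid follicular cells summed to between 245 and 602 FPKM in affected and between 421 and 601 FPKM in unaffected mice. Affected 1 and 6 stood apart here, at 267 and 245 FPKM, against 498 to 602 FPKM in the other affected mice. *Tg* took 11.04% and 10.7% of the counts in these 2 mice, 18.95% to 24.3% in the other affected and 21.6% to 29.6% in the unaffected mice. Transcripts of neighbouring tissues varied from mouse to mouse. The summed level of 11 skeletal muscle genes was between 12.3 FPKM and 13192 FPKM in affected mice, highest in affected 6, and between 5.02 and 5741 FPKM in unaffected mice, highest in unaffected 22. Parathyroid genes were between 2496 and 5067 FPKM in 11 mice and at 7.77 FPKM in affected 4. Macrophage genes were between 139 and 280 FPKM in affected and between 55.4 and 147 FPKM in unaffected mice. Fibroblast genes summed to between 275 and 453 FPKM in affected and between 182 and 261 FPKM in unaffected mice, with no overlap. Of the 6 genes, 2 passed the threshold (*Dcn* and *Pdgfra*). *Col1a1*, the first gene of the list, did not (log2 fold change 0.30, edgeR adjusted p = 0.321). *Lum* went the other way, at -0.19 (edgeR adjusted p = 0.567). Adipose genes were at 2755 FPKM in affected 1 and at most 984 FPKM in the other mice. Cartilage and airway epithelium genes were at 343 FPKM in affected 3 and at most 27.5 FPKM in the other mice. Unaffected 23 stood apart in mucous gland transcripts. *Muc5b*, a gel-forming mucin gene chosen after its values were seen, was at 2310 FPKM there and at most 0.465 FPKM in the other unaffected and 12.1 FPKM in the affected mice. It also had the most *Alb* and *Apob*, liver-type genes chosen in the same way, at 170 and 77.2 CPM, against at most 27.7 and 16.03 CPM in the other unaffected mice. The log2 fold changes of the members, the order of their levels and their nearest profiles are given with and without this library. In bulk tissue, fewer cells of a type and less RNA per cell cannot be told apart.

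To place the genes beside known regulators, the RefSeq promoter windows of GRCm38.p6 (250 bases before to 50 bases after each start site) were searched on both strands for 7 fixed motifs. There were 6 windows for 5 of the 6 members, with a pair of windows for *Sesn1* and none for *Eif4ebp1*. The searched letters were TGATGNAA (the C/EBP-ATF element bound by ATF4), TGTTTAC (FOXO), ACGTG (hypoxia and E-box core), TGACGTCA (CRE), TGACNNNGC (antioxidant element), TATAAA, and the p53 element by its name. The segments that hold the matches are shown 5′ to 3′ on the strand of the gene, with the match in capitals.
*Nupr1*, minus strand of chr7:126625562-126625591: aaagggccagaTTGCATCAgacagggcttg
*Nupr1*, minus strand of chr7:126625678-126625707: gcgagagctttcCACGTGgaaaaacacagc
*Sesn1*, plus strand of chr10:41810585-41810614: gaaccttctacTGTTTACcagccttttggg
*Sesn2*, minus strand of chr4:132510473-132510502: cgcagcgggcTGACAGAGCcgggcgagcgc
*Ddit4*, minus strand of chr10:59951940-59951969: agaacgttgcgaACGTGcgcccggtgccta
The *Nupr1* window was the only one of the 6 with the C/EBP-ATF element, read on the opposite strand, which began 110 bases before the RefSeq start site and which 3.97% of all 32851 windows held. In GENCODE release M21 that stretch is in annotated exons of longer *Nupr1* transcripts. The second *Nupr1* segment holds ACGTG on both strands as the overlapping palindrome CACGTG, and 19.6% of all windows held this core. The first *Sesn1* window held the FOXO letters 22 bases after the start site, in an annotated exon of the gene, and 3.65% of all windows held them. *Sesn2* held the antioxidant element (12.4% of all windows), in an annotated exon of the gene, and *Ddit4* held ACGTG in no annotated exon. No window held the CRE, TATAAA or the p53 element, which 1.79%, 13.6% and 0.073% of all windows held. These matches are letters in a window and show no binding.

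*Sesn1*, a p53- and FOXO-inducible sestrin (chr10:41809935-41908424, plus strand, 3 transcripts), was at the lower end in affected mice. Its level in affected 1, 3, 4, 5 and 6 was 19.5, 12.96, 17.8, 16.2 and 18.6 FPKM. The unaffected mice ranged from 17.9 to 24.3 FPKM with a median of 22.3 FPKM, and the mouse at 17.9 FPKM was unaffected 23. All 5 affected mice lay below the unaffected median and 3 of them lay below all unaffected mice. The group means were 17.0 ± 2.57 FPKM (SD, n = 5) in affected and 22.0 ± 2.27 FPKM (SD, n = 7) in unaffected mice. On the log2 scale the fold change was -0.33 with an SE of 0.11 and a 95% interval from -0.56 to -0.09, or 0.798-fold, and the adjusted p was 0.0619. The call turned on which mice entered and on the scaling and test. Without unaffected 23 the log2 fold change was -0.37 (adjusted p = 0.0479) and without affected 6 it was -0.39 (adjusted p = 0.0288). With all mice *Sesn1* passed in DESeq2, at -0.32 (DESeq2 adjusted p = 0.0418). It also passed with the other scalings and with limma on filtered log2 FPKM.

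*Sesn2*, a leucine-binding sestrin (chr4:132492032-132510501, minus strand, 1 transcript), was at 16.3, 19.8, 11.1, 16.9 and 6.95 FPKM in affected 1, 3, 4, 5 and 6. The unaffected mice ranged from 7.19 to 10.9 FPKM with a median of 9.34 FPKM. Affected 1, 3, 4 and 5 lay above all unaffected mice, and affected 6 lay below them all in FPKM, though on the CPM scale, at 26.9 CPM, it lay above the lowest unaffected mouse, at 24.6 CPM. The means were 14.2 ± 5.13 FPKM (SD, n = 5) and 9.31 ± 1.30 FPKM (SD, n = 7), so that the spread among affected mice was the wider. The log2 fold change was 0.60 with an SE of 0.19 and a 95% interval from 0.18 to 1.02, or 1.51-fold, with an adjusted p of 0.0604. Without unaffected 23 it was 0.63 (adjusted p = 0.0628), without affected 6 it was 0.76 with an adjusted p of 0.00588, and without affected 4 it was 0.67 with an adjusted p of 0.0433. Affected 6 was also the mouse with the most skeletal muscle transcripts, and the part of these in its *Sesn2* level was not tested. Affected 3, the highest mouse for *Sesn2* and the lowest for *Sesn1*, had the most cartilage and airway transcripts. Their part in these levels was not tested.

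*Sesn3*, a FOXO-inducible sestrin (chr9:14275067-14333101, plus strand, 7 transcripts), was at 22.3, 33.9, 33.9, 28.1 and 23.1 FPKM in affected 1, 3, 4, 5 and 6. Unaffected mice ranged from 27.2 to 36.7 FPKM with a median of 33.7 FPKM. Affected 1 and 6, the mice with the least thyroid transcript, lay below all unaffected mice and the other 3 affected mice lay among them. The log2 fold change was -0.19 with an SE of 0.12 and a 95% interval from -0.44 to 0.06 (adjusted p = 0.305), and no processing setting brought it past the threshold. Without unaffected 23 it was -0.17 (adjusted p = 0.388). The part of thyroid content in these values was not tested.

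**Figure D1:**
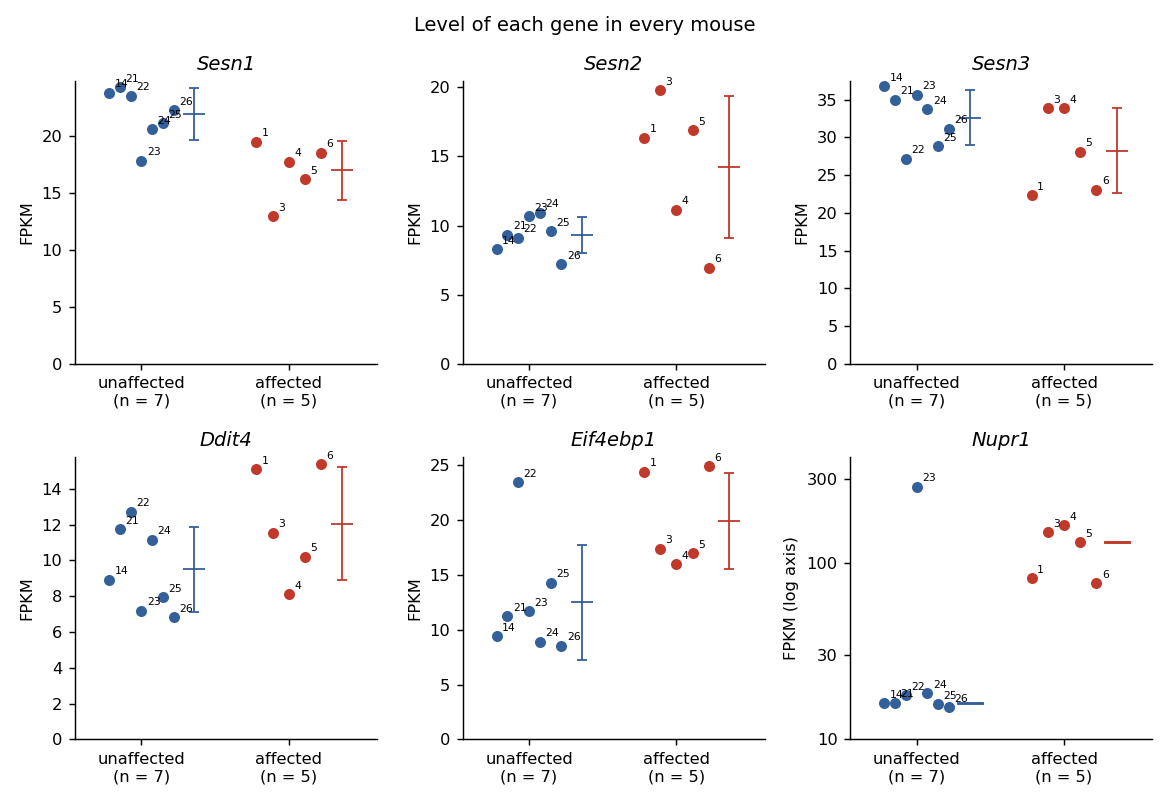
Level of each of the 6 genes in FPKM (vertical axis, logarithmic for Nupr1 only) in 7 unaffected (blue) and 5 affected (red) mice, with the mouse number beside each point. Bars give the mean and SD, and for Nupr1 the line gives the median. The 4 highest affected Sesn2 values, from 11.1 to 19.8 FPKM, lie above the unaffected range, and the Nupr1 value of unaffected 23, 271 FPKM, lies above all 5 affected mice.

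The sestrins were also compared with each other within each mouse. Their summed level was 59.5 ± 6.81 FPKM (SD, n = 5) in affected and 63.9 ± 3.97 FPKM (SD, n = 7) in unaffected mice. *Sesn3* made up the largest share in each mouse, with a mean of 47.3% in affected and 50.9% in unaffected mice. The share of *Sesn2* was 23.5% ± 6.98 (SD, n = 5) in affected and 14.6% ± 2.09 (SD, n = 7) in unaffected mice. The share of *Sesn1* was 29.2% ± 7.13 (SD, n = 5) and 34.5% ± 3.73 (SD, n = 7). *Sesn2* exceeded *Sesn1* in affected 3 and 5, and in affected 3 the shares were 29.7% and 19.5%, whereas in affected 6 *Sesn2* made up 14.3%, within the unaffected range of 11.9% to 16.7%. These shares are built from the members themselves and are given without a test.

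**Figure D2:**
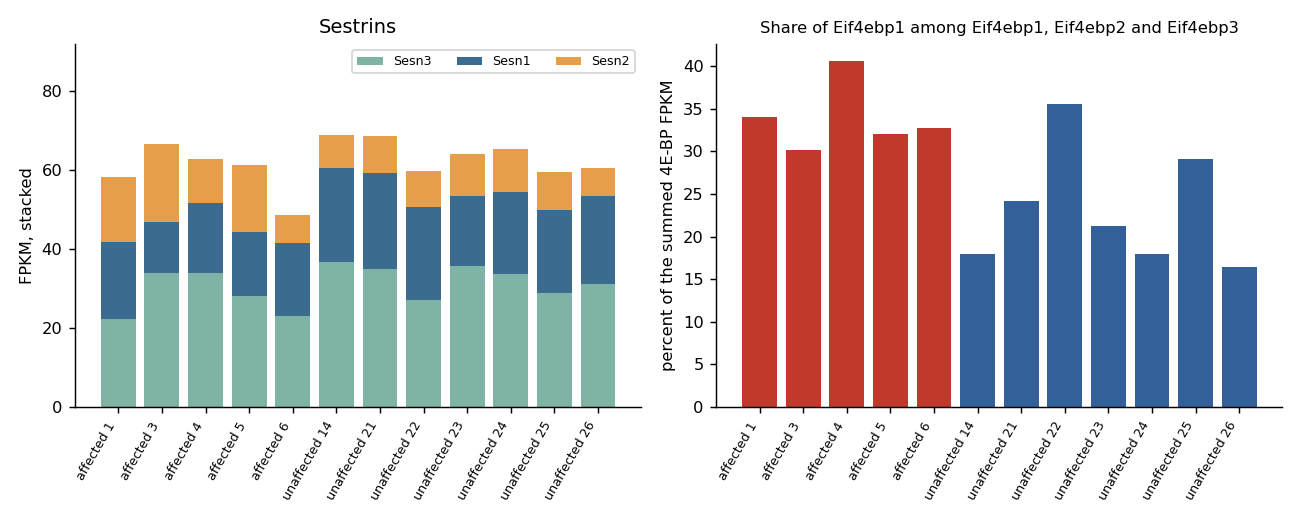
Left, FPKM of Sesn3, Sesn1 and Sesn2 stacked for each of the 12 mice. Right, Eif4ebp1 as a percentage of the summed FPKM of Eif4ebp1, Eif4ebp2 and Eif4ebp3, with affected mice in red and unaffected mice in blue. Sesn2 is the smallest part of the stack in all 7 unaffected mice, and the share of Eif4ebp1 is between 30.2% and 40.6% in affected mice.

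*Ddit4*, the REDD1 gene (chr10:59949669-59951834, minus strand, 1 transcript), was at 15.1, 11.55, 8.10, 10.2 and 15.4 FPKM in affected 1, 3, 4, 5 and 6. Unaffected mice ranged from 6.84 to 12.7 FPKM with a median of 8.92 FPKM. Affected 1 and 6 lay above all unaffected mice, and affected 4 lay below the unaffected median. The log2 fold change was 0.35 with an SE of 0.20 and a 95% interval from -0.08 to 0.79 (adjusted p = 0.269), or 1.28-fold, and no setting brought it past the threshold. Without unaffected 23 it was 0.29 (adjusted p = 0.393). Affected 1 and 6 had the least thyroid transcript, whose part in their *Ddit4* level was not tested. Its relative *Ddit4l*, which encodes the muscle-enriched REDD2, was at 20.0 FPKM in affected 6 and between 2.19 and 3.89 FPKM in the other affected mice. In unaffected mice *Ddit4l* ranged from 3.10 to 11.995 FPKM, highest in unaffected 22, with an adjusted p of 0.945. The mice with the highest *Ddit4l* in each group were those with the most skeletal muscle transcripts, and the part of muscle in these values was not tested.

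*Eif4ebp1*, the 4E-BP1 gene (chr8:27260329-27276674, plus strand, 2 transcripts), was at 24.4, 17.4, 15.96, 17.0 and 24.9 FPKM in affected 1, 3, 4, 5 and 6. In unaffected 14 and 21 to 26 it was at 9.42, 11.2, 23.5, 11.7, 8.91, 14.3 and 8.54 FPKM. All 5 affected mice lay above 6 of the 7 unaffected mice, and unaffected 22 lay among the affected. The means were 19.9 ± 4.36 FPKM (SD, n = 5) and 12.5 ± 5.24 FPKM (SD, n = 7). The log2 fold change was 0.74 with an SE of 0.28 and a 95% interval from 0.13 to 1.35, or 1.67-fold, and the adjusted p was 0.103. Without unaffected 23 the log2 fold change was 0.72 (adjusted p = 0.155), and without unaffected 22 it was 0.97 with an adjusted p of 0.0153. With the mean of the muscle markers as a covariate, an analysis added after the data were seen, it was 0.85 with an adjusted p of 0.0205. The highest affected mice, 6 and 1, were those with the least thyroid transcript. Affected 6 had 13192 FPKM of muscle transcripts, and affected 1 had 12.3 FPKM of muscle and 2755 FPKM of adipose transcripts. The part of thyroid, muscle and adipose content in these values was not tested.

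The other 4E-BP genes and *Eif4e* did not pass the threshold. *Eif4ebp2*, the 4E-BP with the highest level in each mouse, was at 38.2 ± 11.4 FPKM (SD, n = 5) in affected and 38.6 ± 3.46 FPKM (SD, n = 7) in unaffected mice, with an adjusted p of 0.976. *Eif4ebp3* was at 1.41 ± 0.683 FPKM (SD, n = 5) and 1.75 ± 0.651 FPKM (SD, n = 7), with an adjusted p of 0.657. *Eif4e*, which encodes their binding partner, was at 20.0 ± 1.11 FPKM (SD, n = 5) and 21.1 ± 1.42 FPKM (SD, n = 7), with a log2 fold change of -0.10 (95% interval from -0.22 to 0.01) and an adjusted p of 0.219. *Eif4ebp1* made up 33.9% ± 3.99 (SD, n = 5) of the summed 4E-BP level in affected and 23.2% ± 7.02 (SD, n = 7) in unaffected mice. This difference of 10.7 percentage points gave p = 0.0189 (exact permutation test, two-sided, every split of the mice enumerated), or 0.0379 adjusted over the 2 values tested here. In 14 other settings the difference was between 4.89 (in CPM) and 12.8 percentage points, and the adjusted exact permutation p stayed under the threshold in 4 of them and was at most 0.0649. Without unaffected 23 the difference was 10.4 percentage points. The ranges overlapped through unaffected 22, at 35.6%. The highest share, 40.6%, was in affected 4, whose *Eif4ebp1* was the lowest of the affected mice, at 15.96 FPKM. Its *Eif4ebp2* was at 21.6 FPKM, against 33.8 to 50.8 FPKM in the other affected mice, so a high share need not mean more *Eif4ebp1*. Without affected 4 the difference was 9.02 percentage points. The log2 ratio of the summed 4E-BP level to *Eif4e* was 1.54 ± 0.37 (SD, n = 5) and 1.32 ± 0.22 (SD, n = 7), with p = 0.221 in the same exact permutation test (0.221 also after adjustment).

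*Nupr1* (chr7:126623249-126630861, minus strand, 6 transcripts) was the member with the widest range. It was at 82.2, 149, 163, 131 and 76.6 FPKM in affected 1, 3, 4, 5 and 6. In unaffected 14, 21, 22, 24, 25 and 26 it was between 15.2 and 18.2 FPKM, and in unaffected 23 it was at 271 FPKM. The 5 affected mice thus lay above 6 of the unaffected mice with a wide gap, and unaffected 23 lay above every affected mouse. Over all 12 mice the log2 fold change was 1.16 with an SE of 0.84 and a 95% interval from -0.70 to 3.01 (adjusted p = 0.402). Without unaffected 23 it was 2.84 with an SE of 0.20 and a 95% interval from 2.39 to 3.28, or 7.14-fold, and the adjusted p was 3.43e-05. In each of the other leave-one-out fits *Nupr1* missed the threshold.

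Unaffected 23 was also the mouse with the most mucous gland transcripts. A list of 9 mucous gland genes, written after the values were seen, summed to 4155 FPKM in unaffected 23, between 6.47 and 27.8 FPKM in the other unaffected mice and between 28.02 and 70.5 FPKM in affected mice. *Muc19*, a second gel-forming mucin gene, was at 1042 FPKM in unaffected 23 and at most 0.441 FPKM in the other 11 mice. *Agr2*, which encodes a protein disulfide isomerase of secretory cells, was at 59.8 FPKM in unaffected 23, at most 3.60 FPKM in the other unaffected mice and between 23.4 and 62.2 FPKM in affected mice. It made up most of the summed level in every affected mouse, from 43.3 of 70.5 FPKM in affected 3 to 62.2 of 68.7 FPKM in affected 4. The sum in affected mice is thus mostly this gene. *Spdef* and *Bpifb2*, also on the list, were at most 0.726 and 0.25 FPKM in affected mice. *Muc5b* by contrast was at most 1.11 FPKM in 4 of the affected mice and at 12.1 FPKM in affected 3. *Fcgbp*, also on the list, was at 4.95 FPKM in unaffected 23 and higher, at 19.7 FPKM, in unaffected 21. None of the 9 genes was at 0 in all mice. The part of the mucous gland transcripts in the *Nupr1* level of unaffected 23 was not tested.

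**Figure D3:**
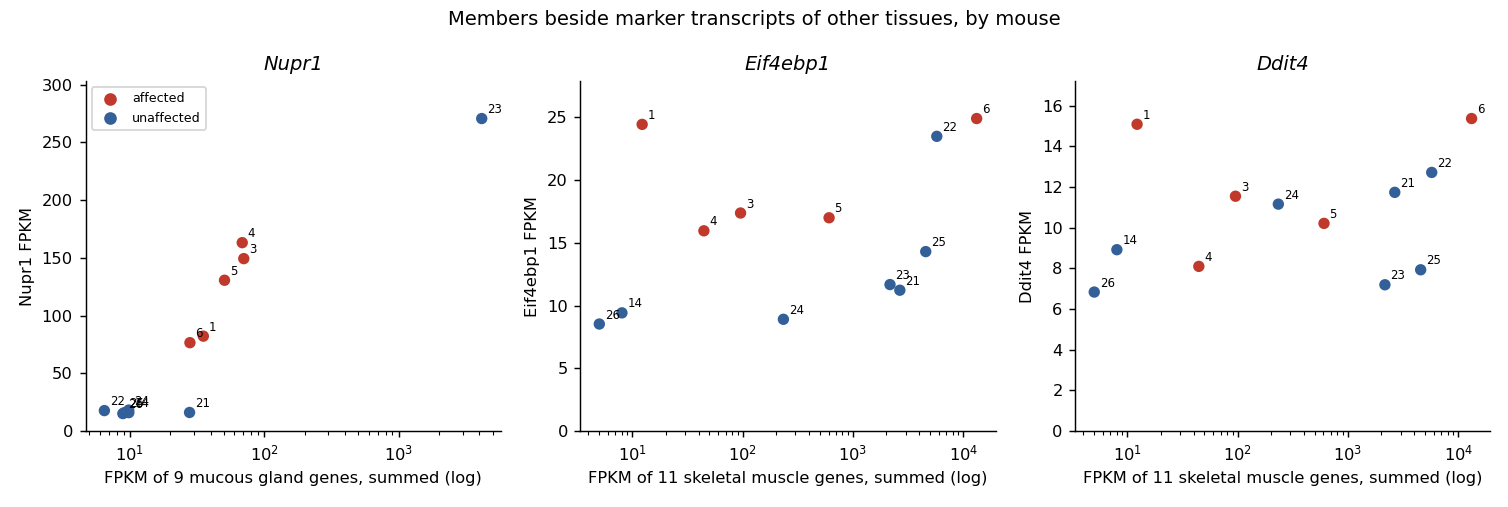
FPKM of Nupr1 against the summed FPKM of 9 mucous gland genes, and of Eif4ebp1 and Ddit4 against the summed FPKM of 11 skeletal muscle genes (logarithmic horizontal axes), with each point 1 mouse labelled by its number. Unaffected 23 is alone at 4155 FPKM of mucous gland transcripts and 271 FPKM of Nupr1, and affected 6 has the most muscle transcripts, 13192 FPKM. In affected mice most of the mucous gland sum is Agr2.

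**Figure D4:**
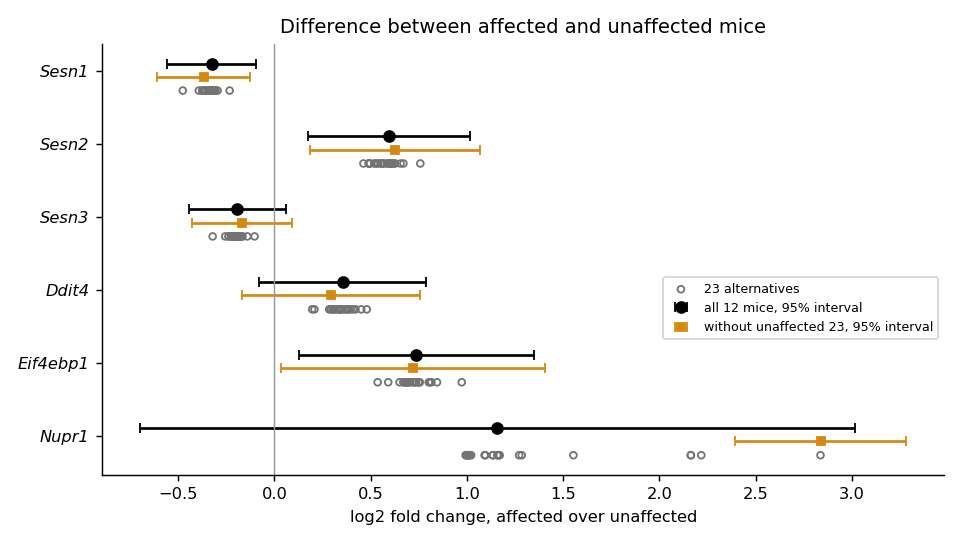
Log2 fold change of each gene, affected over unaffected, in the fit over all 12 mice (black, with 95% interval), without unaffected 23 (orange squares, with 95% interval) and in the 23 alternative settings, which include the fit without unaffected 23 (open circles). The Nupr1 interval runs from -0.70 to 3.01 with all mice and from 2.39 to 3.28 without unaffected 23.

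Per unit of length, the order of the mean levels in unaffected mice was *Nupr1* (52.8 FPKM), *Sesn3* (32.6 FPKM), *Sesn1* (22.0 FPKM), *Eif4ebp1* (12.5 FPKM), *Ddit4* (9.50 FPKM) and *Sesn2* (9.31 FPKM). The first place of *Nupr1* rests on unaffected 23, since without it *Nupr1* had a mean of 16.5 ± 1.19 FPKM (SD, n = 6) and came after *Sesn3* and *Sesn1*. Neighbours were compared within the 7 unaffected mice by exact sign-flip tests, where the smallest possible p is 0.0156, adjusted over 5 pairs. *Sesn3* exceeded *Sesn1* in 7 of 7 mice by a mean of 0.57 on the log2 scale, and *Sesn1* exceeded *Eif4ebp1* in 7 of 7 mice by 0.89 (exact adjusted p = 0.0391 for each pair). The other 3 pairs missed the threshold, with exact adjusted p values of 0.664 for *Nupr1* and *Sesn3*, 0.208 for *Eif4ebp1* and *Ddit4*, and 0.984 for *Ddit4* and *Sesn2*. Without unaffected 23, a comparison added after the data were seen, *Nupr1* was below *Sesn3* in 6 of 6 mice by a mean log2 ratio of -0.95. *Sesn3* then exceeded *Sesn1* by 0.50 and *Sesn1* exceeded *Eif4ebp1* by 0.94, in 6 of 6 mice each. For each of these 3 pairs the exact p was 0.0312, the smallest that 6 mice allow, or 0.0521 adjusted over the 5 pairs, so that none passed. *Eif4ebp1* and *Ddit4*, and *Ddit4* and *Sesn2*, had log2 ratios of 0.29 and 0.10 (exact adjusted p = 0.312 and 0.375). In affected mice *Nupr1* was the highest of the 6 genes in 5 of 5 mice. *Sesn1* exceeded *Eif4ebp1* in 1 of 5 affected mice, and the mean log2 ratio there was -0.22 ± 0.25 (SD, n = 5). *Eif4ebp1* exceeded *Ddit4* in 5 of 5 affected mice, by a mean of 0.74 on the log2 scale.

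Among the affected mice the members fell into different orders. *Ddit4* and *Eif4ebp1* shared the order 6, 1, 3, 5, 4 from the highest mouse to the lowest in FPKM. In CPM *Eif4ebp1* ran 6, 1, 5, 3, 4 and *Ddit4* kept its order. Theirs was the closest pair of profiles among the members over the 12 mice, with a root mean square distance of 0.67 between standardised log2 CPM, and it was so without unaffected 23 (0.65). *Sesn2* had the order 3, 5, 1, 4, 6. The same order was found for *Ddit3*, the gene of the stress factor CHOP, at 77.1, 54.9, 45.7, 28.4 and 15.2 FPKM, and for *Trib3*, another ATF4 target that was chosen after its values were seen. Other stress genes ran differently, since *Atf3* and *Gdf15* had the order 3, 5, 4, 1, 6 and *Cdkn1a* 3, 5, 1, 6, 4. *Hmox1* ran 5, 3, 1, 4, 6. *Asns* and *Chac1*, ATF4 targets also chosen after their values were seen, ran 5, 3, 4, 1, 6 and 6, 3, 5, 1, 4. *Chac1* was thus highest, at 14.2 FPKM, in affected 6, the lowest mouse for *Sesn2*. *Sesn1* ran from affected 1 to affected 3, its lowest mouse, while affected 3 was the highest mouse for *Sesn2*. *Nupr1* ran 4, 3, 5, 1, 6. Thyroid content, as the sum of 10 thyroid genes or as the *Tg* share, ran 6, 1, 3, 5, 4 from its lowest mouse to its highest. That is the FPKM order of *Ddit4* and *Eif4ebp1* from the highest mouse to the lowest. Affected 3 and 5 were close in the sum of 10 genes, at 498 and 503 FPKM. The order of affected 3, 4 and 5 depended on which thyroid genes were summed, while affected 6 and 1 stayed the lowest. The part of thyroid content in these orders was not tested. These orders are over 5 mice that share libraries and are descriptions.

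Outside the members, the genes with the most similar profile over the 12 mice were named by the smallest distance between standardised log2 CPM. For *Nupr1* they were *B4galnt2* (0.18), *Cgref1* (0.21) and *Agr2* (0.23). For *Eif4ebp1* they were *Psmd4* (0.27), *Zpr1* (0.29) and *Psmd8* (0.30), of which *Psmd4* and *Psmd8* encode subunits of the proteasome. For *Sesn2* they were *Rassf1* (0.34), *4732496C06Rik* (0.38) and *Hey2* (0.38), and all 3 passed the threshold with log2 fold changes of 0.41, 1.00 and 1.09. For *Sesn1* they were *4632418H02Rik*, *A530020G20Rik* and *Cdkal1* (0.28 to 0.37), for *Sesn3* *A430110C17Rik*, *2610002M06Rik* and *Fadd* (0.35 to 0.38), and for *Ddit4* *Plekhf1*, *Prps1* and *Pcdhb17* (0.40 to 0.43). Without unaffected 23 the nearest to *Nupr1* were *Gm7968* (0.11), *Mthfd2* (0.13), which encodes an enzyme of mitochondrial folate metabolism, and *Gorasp2* (0.14), none of them among the 3 over 12 mice. For *Eif4ebp1* they were then *Cebpd*, *Rusc2* and *Psmd4* (0.21 to 0.27), for *Sesn2* *4732496C06Rik*, *Rassf1* and *Pim2* (0.32 to 0.36), and for *Ddit4* *Pcdhb17*, *Endog* and *Plekhf1* (0.31 to 0.39). For *Sesn1* they were *4632418H02Rik*, *A530020G20Rik* and *Snrnp200* (0.28 to 0.33), and for *Sesn3* *Atp6v0d2*, *A430110C17Rik* and *Slc46a1* (0.28 to 0.34).

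Unaffected 14, the only unaffected mouse from Taconic, was compared with both colonies without a test. Its *Sesn1* was at 23.9 FPKM, its *Sesn2* at 8.30 FPKM, its *Ddit4* at 8.92 FPKM, its *Eif4ebp1* at 9.42 FPKM and its *Nupr1* at 15.995 FPKM, all within the range of the 6 B6NCrl mice. Its *Sesn3*, at 36.7 FPKM, lay above the highest B6NCrl mouse, at 35.7 FPKM. For *Sesn1*, *Sesn3*, *Eif4ebp1* and *Nupr1* it lay outside the range of the affected mice.

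Genes of mTORC1 and of the routes around it were given by fixed lists, and not all of them are targets of the members. The medians of the lists are set beside a median log2 fold change of 0.0052 over all genes tested. Their counts are set beside 7.63% of all genes higher and 6.10% lower. Of the 9 tested genes of mTORC1 and its direct switches, 2 rose and none fell, with a median of 0.06. *Deptor*, which encodes an inhibitory subunit, rose by a log2 fold change of 0.36 (adjusted p = 0.0202), and *Rheb*, the GTPase that activates mTORC1, rose by 0.16 (adjusted p = 0.0273). Of 26 tested genes of amino acid sensing, 2 rose and 2 fell, with a median of 0.01. *Lamtor2*, of the lysosomal scaffold, rose by 0.38, while *Castor1*, the arginine sensor, had a log2 fold change of -0.54 and *Itfg2*, of the KICSTOR complex, of -0.36. None of 17 genes of cap-dependent translation and mTORC1 substrates passed the threshold (median 0.04), and none of 7 AMPK subunits did (median 0.14). Of the list of relatives of the members, which also holds *Txnip*, none of the 5 tested genes passed the threshold. *Txnip*, a stress- and glucose-responsive gene of another family, had a log2 fold change of -0.36 (edgeR adjusted p = 0.21). *Nupr1l*, the *Nupr1* paralogue, had one of -0.05 (edgeR adjusted p = 0.854).

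The other targets of the known regulators were counted in the same way. Of 14 tested targets of ATF4 other than the members, 10 rose and none fell, with a median log2 fold change of 1.44. *Gdf15*, a stress-induced cytokine gene, rose by 3.86 (adjusted p = 0.000572), *Atf3* by 3.50 (adjusted p = 0.000876) and *Ddit3* by 2.61 (adjusted p = 0.00017). Of 14 p53 targets, 7 rose and none fell (median 0.67). *Cdkn1a*, the p21 gene, rose by 2.05, *Gadd45a* by 1.45 and *Ccng1* by 1.01. Of 7 NRF2 targets, 5 rose and none fell (median 0.61). *Hmox1*, the heme oxygenase gene, rose by 1.68, *Srxn1* by 1.38 and *Gclm* by 0.70. None of 12 FOXO targets (median 0.08) and none of 13 hypoxia genes (median 0.12) passed the threshold. Of 8 glucocorticoid-responsive genes 1 rose, *Mt2*, a metallothionein gene, by 0.82 (adjusted p = 0.0152, median of the list 0.11). The median of the 6 members was not tested against these lists. Summed fibroblast transcripts were higher in affected mice, and so were summed macrophage transcripts with an overlap of the ranges, as given above. The part of both was not tested.

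**Figure D5:**
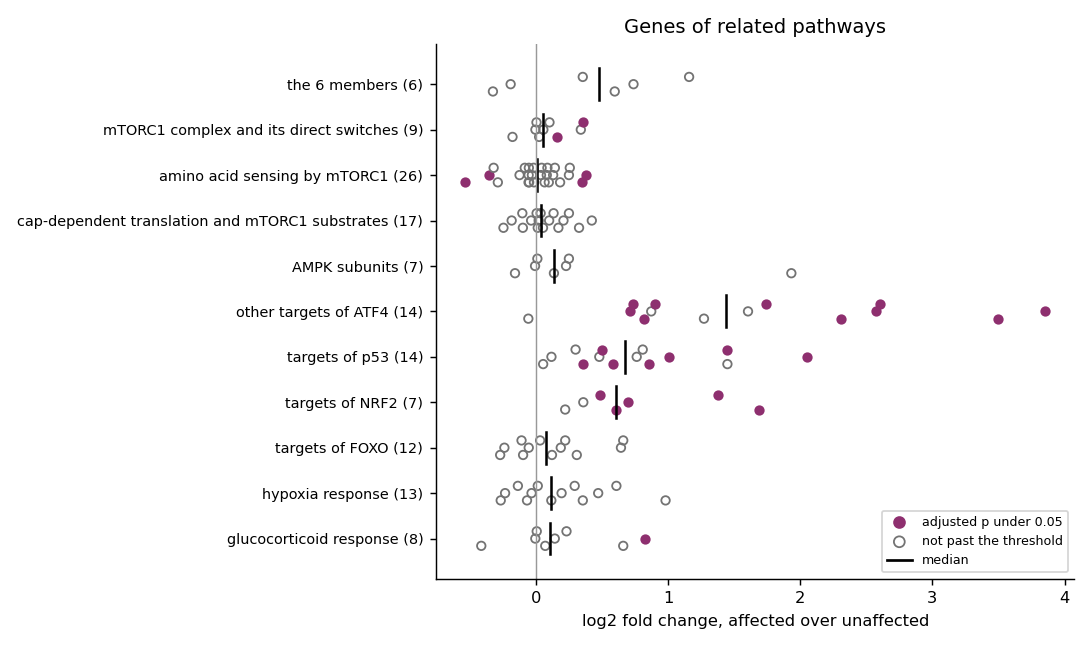
Log2 fold change, affected over unaffected, of the 6 members and of the tested genes of 10 fixed lists (number of genes in parentheses), with filled points past an adjusted p of 0.05 and a line at each median. The ATF4 targets have 10 of 14 points past the threshold, while none of the 6 members is past it.

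The transcript length implied by the tables, which is a gene's count over the product of its FPKM and the library total, was used to ask whether another mix of transcripts lay behind these values. For *Sesn1* it was 2901 ± 34.0 bp (SD, n = 5) in affected and 2853 ± 38.1 bp (SD, n = 7) in unaffected mice (limma, adjusted p = 0.457). For *Nupr1* it was 843 ± 12.6 bp (SD, n = 5) and 862 ± 20.0 bp (SD, n = 7), with 854 bp in unaffected 23 (adjusted p = 0.473). *Sesn3* (adjusted p = 0.987) and *Eif4ebp1* (adjusted p = 0.853) did not pass the threshold either, so that none of the 4 members with several transcripts was called, against 0.363% of 10479 genes. *Sesn2* and *Ddit4* have a single annotated transcript, of 3475 and 1755 bp. The deposited table marks *Sesn1* and *Sesn2* as confounded, though no exon of another gene overlaps an exon of any member in GENCODE release M21.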

How the data were processed

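Thyroid RNA of 12 mice was depleted of ribosomal RNA and sequenced on the Illumina NextSeq platform. Alignment and gene quantitation were done by the authors in OmicSoft Array Studio with Ensembl's mouse annotation, and the coordinates are those of GRCm38. The deposited tables hold estimated counts, not normalized, and FPKM values (counts scaled by transcript length and library total). The strand setting of the counting is not given in the sources used here.

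Estimated counts were rounded to whole numbers, filtered by edgeR's filterByExpr (minimum count 10), and scaled with TMM. Affected and unaffected mice were compared by the robust quasi-likelihood F test of edgeR 4.0.16 (R 4.3.3) with no covariate, and Benjamini-Hochberg adjustment ran over all 19661 genes (threshold 0.05). The SE of a log2 fold change is its size divided by the square root of the F statistic. CPM are TMM-scaled, and log2 CPM have a prior count of 2. Levels of different genes were compared in FPKM. Implied lengths were tested with limma 3.58.1 on genes with at least 50 counts in every mouse. The edgeR fit and the limma fit were tested on simulated data, and the other steps were not.

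The 6 members, the gene lists and the tests were chosen with earlier results of these data known. Named genes are the members, the list of their relatives with *Txnip*, *Eif4e*, and up to 3 called genes of each list by size of change. In some marker lists the first gene or other genes are named. For each member the 3 nearest profiles are given among genes whose average log2 CPM reached 1. The mucous gland list was written after the data were seen. Not every marker list is described, and 1 thyroid marker is not reported here. Intervals cover the spread between mice. RefSeq sequences are from GRCm38.p6. Protein sequences and a promoter of *Eif4ebp1* were not used here. Alternatives were DESeq2 1.42.0, 3 other scalings, 2 other filters, the 6 B6NCrl mice as the only controls, limma on log2 FPKM (pseudocount 1 or 0.1, genes with a mean FPKM from 0.5 up, and once unfiltered with pseudocount 1), a fit with *Xist* as covariate, and leaving out each mouse. Fold changes on the log2(FPKM + pseudocount) scale understate the change of low genes. Another 5 were added after the data were seen.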

Additional observations from a re-analysis of the deposited data

Results flagged for a closer look

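Chance flags about 1 in 20 groups, and 4 mice were flagged in 38 groups of 5 or 7 values. *Nupr1* in unaffected 23, at 235 CPM, was far from the other unaffected mice, of which the next was at 16.04 CPM. *Ddit4l* in affected 6, at 59.02 CPM, was far from the other affected mice, of which the next was at 9.30 CPM. *Ddit4l* in unaffected 22, at 31.7 CPM, was far from the other unaffected mice, of which the next was at 17.8 CPM. The log2 ratio of the summed 4E-BP level to *Eif4e* in unaffected 22, at 1.79, was far from the other unaffected mice, of which the next was at 1.39.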

How the results depend on the processing

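The number of members past the threshold was 0 with all 12 mice and edgeR, and 3 with DESeq2 (*Sesn1*, *Sesn2*, *Eif4ebp1*). It was 1 with library totals without TMM factors, with library totals without *Tg*, with upper-quartile factors and with limma on filtered log2 FPKM at either pseudocount (*Sesn1* each time), and 1 with at least 10 counts in every mouse (*Sesn2*). With each mouse left out it was between 0 and 2. Among the analyses added after the data were seen it was 3 without affected 6 and unaffected 23, 3 with DESeq2 without unaffected 23 (*Nupr1*, *Sesn1* and *Sesn2* both times) and 1 with the muscle covariate (*Eif4ebp1*). In 23 planned settings *Sesn1* passed in 8 (log2 fold change from -0.48 to -0.23), *Sesn2* in 4 (0.46 to 0.76), *Eif4ebp1* in 2 (0.54 to 0.97), *Nupr1* in 1 (0.99 to 2.84), and *Sesn3* and *Ddit4* in 0, and no member changed sign. With the 6 B6NCrl mice as the only controls the fit is the one without unaffected 14, and both are among the 23. The number of genes past the threshold was 2699, and 1339 with limma on log2(FPKM + 1) without a filter. With each mouse left out it was between 1774 (without affected 5) and 3390. Library totals without *Tg* shifted the median log2 fold change of all genes to -0.13, where 26.2% of the called genes were higher against 55.6%, and the *Sesn1* value of -0.48 is from that setting. With upper-quartile factors 43.2% were higher. *Eif4ebp2*, at -0.0111, changed sign with at least 10 counts in every mouse (0.00968), with *Xist* as a covariate (0.00801) and with DESeq2 without unaffected 23 (0.0257), and ranged from -0.18 to 0.15 with each mouse left out. With each mouse left out, the difference in implied length ranged from -0.0107 (without affected 6) to 0.0657 on the log2 scale for *Eif4ebp1* and from -0.0131 to 0.0111 for *Sesn3*, negative in 5 of these fits. The difference in the share of *Eif4ebp1* among the 4E-BPs, with an exact permutation p adjusted over 2 values, missed the threshold in 10 of 14 settings (highest 0.0649; highest unadjusted exact p 0.0455), among them the B6NCrl mice as the only controls (9.81 percentage points), and ranged from 9.02 to 12.8 points with each mouse left out. Without unaffected 23 no pair of neighbouring members passed the adjusted exact test. The cause of these changes was not tested. No paired analysis was possible because the groups share no replicate number.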
